A study of Mus musculus with 24 samples.

Results

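The 9 genes described here encode the interleukin-6, interleukin-12 and interleukin-10 cytokines of macrophages and their closest partners: Il6, Il12a, Il12b, Il23a, Il27, Ebi3, Il10, the receptor gene Il10ra, and Il15. They were found by gene symbol, and all 9 were present among the 22996 genes of the table for bone marrow-derived macrophages (BMDMs) and among the 54380 genes of the table for J774.1 cells. A filter on low values kept genes with a mean of 1 or more over the libraries fitted, in TPM, a transcript level corrected for length and library size. It left 9 of 9 in BMDMs among 12146 genes tested, and 6 of 9 in J774.1 cells among 11818 genes tested. Il12a, Il12b and Il10 lay below that level in J774.1 cells and were not tested there.

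The study targeted CtBP1 and CtBP2, co-repressors that are recruited to genes by transcription factors. Polyadenylated RNA was sequenced in 24 libraries, 3 in each of 8 groups. BMDMs came from male C57BL6/N mice aged 6 to 12 weeks and were differentiated to day 6 with L929 cell supernatant. They received Ctbp2 siRNA, Ctbp1 siRNA or control siRNA, and then either LPS (lipopolysaccharide, from the outer membrane of Gram-negative bacteria) at 100 ng/ml or the PBS vehicle, for 4 h. J774.1 cells, a female BALB/c macrophage line, were either Ctbp1/2 double knockout or wildtype, and both had LPS at 100 ng/ml for 4 h. The labels do not say how many knockout clones were used, and nothing ties a replicate number to a separate mouse or culture, so p-values measure the spread between these libraries, which may be technical.

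Most of these cytokines act as paired chains. IL-12 is a p35 chain (Il12a) bound to the p40 chain (Il12b), and IL-23 is a p19 chain (Il23a) bound to the same p40. IL-27 is a p28 chain (Il27) bound to EBI3 (Ebi3). IL-6 is a single chain that signals through the shared receptor gp130, and macrophages release it with the p40 cytokines after Toll-like receptors sense LPS. IL-10 is the main anti-inflammatory cytokine of these cells and signals back through IL-10RA (Il10ra) and STAT3, while IL-15 sustains natural killer cells and memory CD8 T cells.

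Of the 4 members in the promoter table used, Il6 and Il12b were those whose levels with LPS lay higher in Ctbp2 siRNA cells than in Ctbp1 siRNA cells with no overlap, so the 250 bases before their start sites are shown. The sequences are RefSeq's on GRCm38.p6, both on the plus strand, at chr5:30012864-30013113 for Il6 and chr11:44399813-44400062 for Il12b. Capitals mark matches to the motifs searched on both strands.

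Il6 promoter: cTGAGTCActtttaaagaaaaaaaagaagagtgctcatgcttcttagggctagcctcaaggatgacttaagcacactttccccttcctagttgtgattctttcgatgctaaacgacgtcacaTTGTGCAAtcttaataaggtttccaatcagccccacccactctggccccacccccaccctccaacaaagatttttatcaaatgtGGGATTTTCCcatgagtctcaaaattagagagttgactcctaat
Il12b promoter: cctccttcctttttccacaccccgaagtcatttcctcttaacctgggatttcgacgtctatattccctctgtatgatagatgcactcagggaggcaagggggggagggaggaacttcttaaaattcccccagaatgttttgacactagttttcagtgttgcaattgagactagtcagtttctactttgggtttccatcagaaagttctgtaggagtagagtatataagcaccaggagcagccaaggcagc

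The motifs were kappa-B (GGG, any 3 bases, TTCC), C/EBP (TTGCNNAA), AP-1 (TGANTCA) and an interferon response element (GAAA, any 2 bases, GAAA), in windows that also reach 50 bases past the start. The Il6 window held a kappa-B match that begins 44 bases before the start, a C/EBP match at 128 bases and an AP-1 match at 249 bases. No match to these letters lay in the window of Il12b, in those of Ebi3 and Il12a, or overlapped another. Among all 32851 windows of this length, 5.56% held the kappa-B letters, 10.8% the C/EBP letters, 7.81% the AP-1 letters and 3.44% the interferon element.

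The targeted transcripts fell as the labels state in BMDMs. With LPS, Ctbp2 ranged from 10.4 to 13.8 TPM in Ctbp2 siRNA cells, against 36.9 to 40.3 TPM in control siRNA cells. Ctbp1 ranged from 48.1 to 56.0 TPM in Ctbp1 siRNA cells, against 117 to 131 TPM in control siRNA cells. In J774.1 cells, Ctbp1 ranged from 16.1 to 22.3 TPM in the double knockout and from 156 to 164 TPM in wildtype. Ctbp2 transcript stood at 61.5 to 64.1 TPM in the double knockout against 74.4 to 81.4 TPM in wildtype, so transcript level shows only a small loss there. The summed macrophage markers Adgre1, Csf1r, Cd68, Itgam, Lyz2 and Mertk ranged from 10776 to 14201 TPM in BMDM libraries. Of these markers, Mertk was at or near 0 in J774.1 cells, and Adgre1 averaged 15.8 TPM in the double knockout and 225 TPM in wildtype, while the sum of all 6 was 1451 to 1555 TPM in the double knockout and 1381 to 1398 TPM in wildtype. Among BMDM libraries, 5 markers of dendritic cells, another source of IL-12, summed to 0.761 to 1.99 TPM with LPS and to at most 0.507 TPM with vehicle. The 6 neutrophil markers, of which S100a9 had the highest mean, summed to 65.6 to 146 TPM with LPS and 51.9 to 104 TPM with vehicle. Those of B cells and mast cells summed to at most 0.778 TPM. The part of these cells in the results was not tested. Libraries were unstranded, so reads of Il27 and Apobr, of Ebi3 and the antisense gene Gm16712, and of Il10ra and the pseudogene Gm20612 cannot be told apart where those pairs overlap.

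One library stood apart in the cytokine genes. Control siRNA replicate 4 with LPS had 11.7% of the mean of its 2 group mates for Il23a, 24.3% for Il12a, 32.6% for Il6, 35.0% for Il12b, 52.4% for Il27 and 67.3% for Il15. For Il10 it had 85.5%, for Ebi3 91.9% and for Il10ra 102%. The same library was lower than both group mates in 82.9% of 328 other genes that were at least 4-fold induced by LPS in Ctbp1 siRNA cells, while the other 8 LPS libraries reached 8.23% to 48.2%. Member results that touch this library are given with and without it. Since the members' own values set it apart, calls of members made without it describe the data and are no independent evidence.

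With LPS, 4 members were present that were almost silent in vehicle. Il6, the acute inflammatory cytokine, had 171, 185 and 153 TPM with LPS in Ctbp2 siRNA cells, 110, 120 and 105 TPM in Ctbp1 siRNA cells and 191, 209 and 65.2 TPM in control siRNA cells, and it was listed at 0 in all 9 vehicle libraries. Il12b, the p40 chain, had 125, 166 and 122 TPM with LPS in Ctbp2 siRNA cells, 62.7, 71.8 and 67.0 TPM in Ctbp1 siRNA cells and 95.6, 124 and 38.4 TPM in control siRNA cells, against 0 TPM in 8 vehicle libraries and 0.0460 TPM in control siRNA replicate 1. The low control siRNA value of both genes was replicate 4. Il23a, the p19 chain, had 4.30, 6.67 and 3.46 TPM with LPS in Ctbp2 siRNA cells, 2.33, 2.38 and 0.856 TPM in Ctbp1 siRNA cells and 4.29, 5.60 and 0.577 TPM in control siRNA cells, against at most 0.0696 TPM in vehicle. Il12a, the p35 chain, had 6.28, 4.13 and 5.06 TPM with LPS in Ctbp2 siRNA cells, 6.20, 2.91 and 5.67 TPM in Ctbp1 siRNA cells and 7.39, 6.28 and 1.66 TPM in control siRNA cells, and it was listed at 0 in vehicle. These 4 genes passed the filter only through their LPS libraries and so had to differ, and no fold or test against vehicle is given for them.

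**Figure D1:**
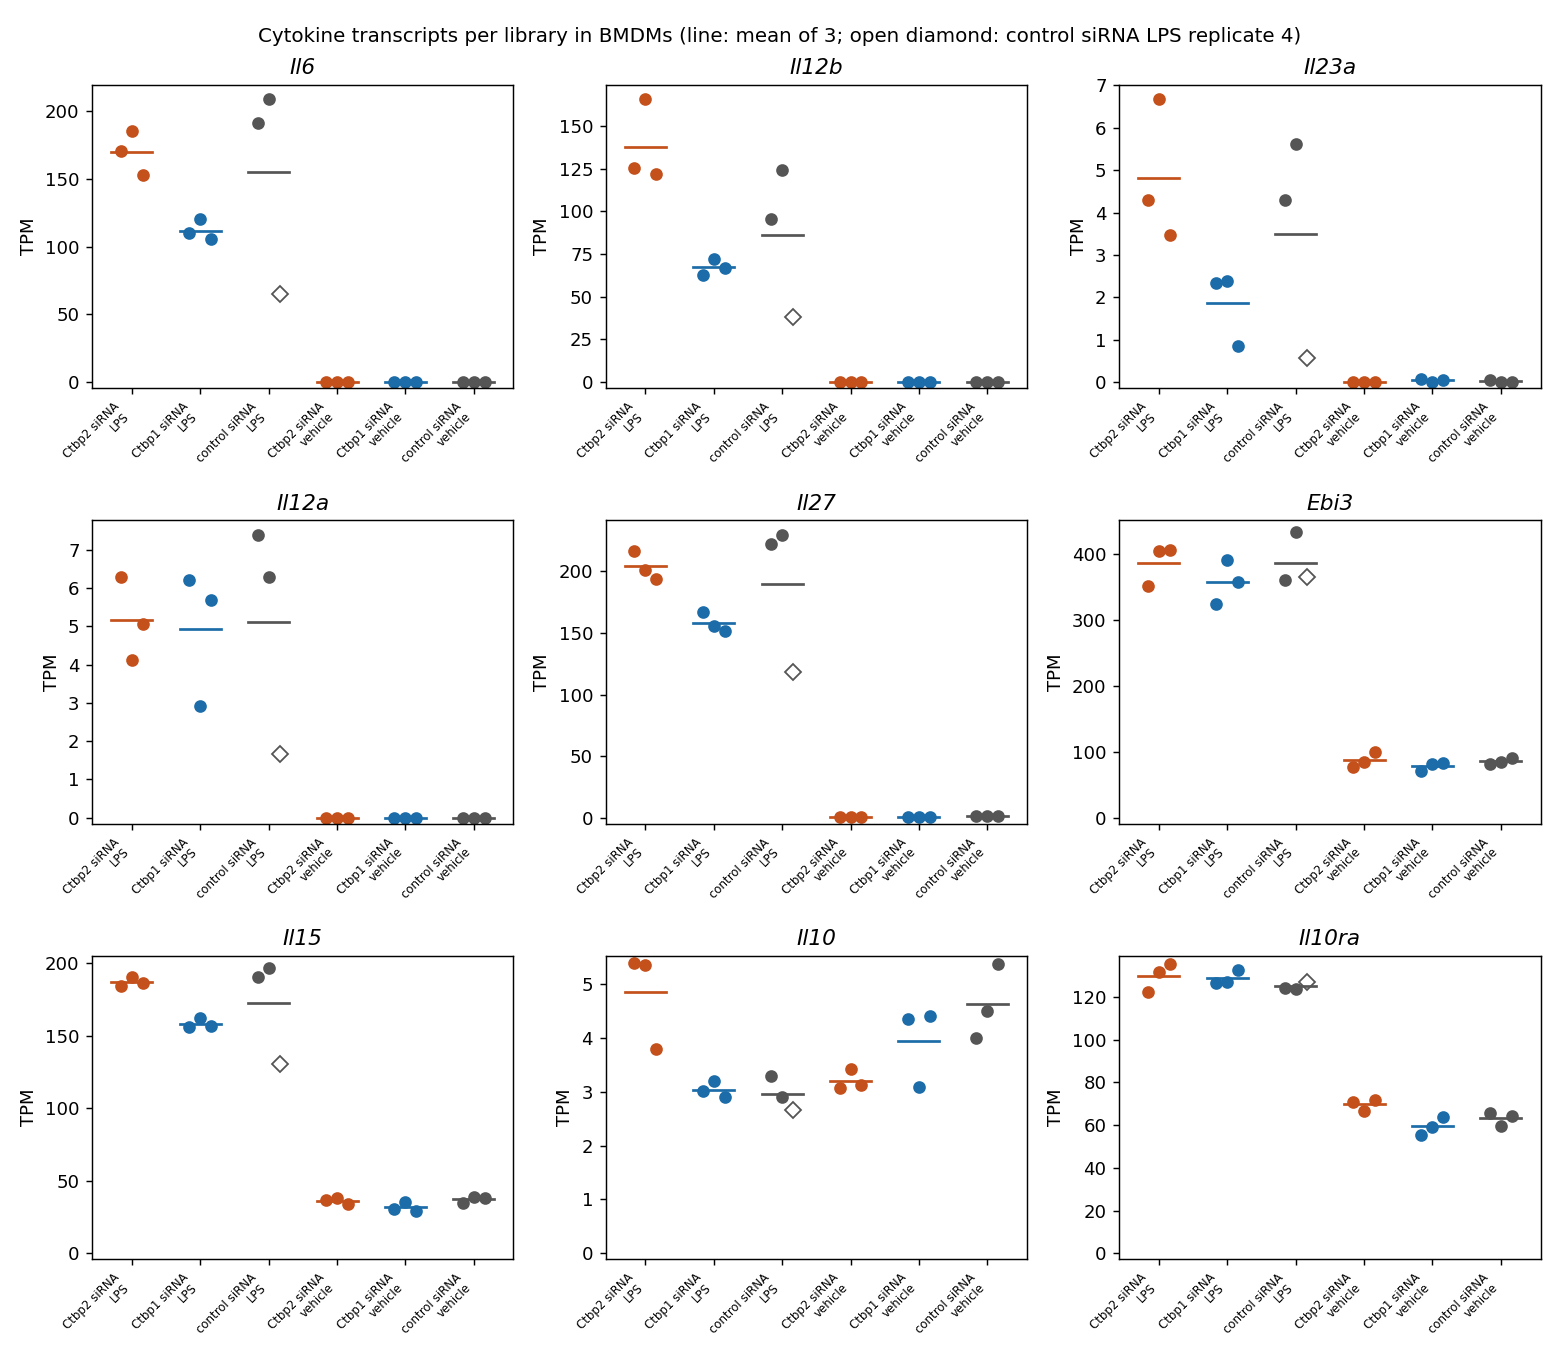
TPM of each of the 9 genes in the 18 BMDM libraries, with 1 point per library, a line at the mean of 3, and an open diamond for control siRNA LPS replicate 4. Il6, Il12b, Il23a and Il12a sit at or near 0 in vehicle, Ebi3, Il15, Il27 and Il10ra are higher with LPS in every siRNA group, and Il10 keeps a level of 2.66 to 5.39 TPM in all 18 libraries.

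The 2 chains of IL-27 started from different levels. Il27 had 217, 201 and 194 TPM with LPS in Ctbp2 siRNA cells, 167, 156 and 152 TPM in Ctbp1 siRNA cells and 222, 230 and 118 TPM in control siRNA cells. In vehicle it lay between 0.476 and 1.62 TPM, so it also owes its place above the filter to LPS, and no fold or test against vehicle is given for it. Ebi3 was already present in vehicle at 70.1 to 100.2 TPM, and with LPS it had 351, 404 and 405 TPM in Ctbp2 siRNA cells, 324, 390 and 357 TPM in Ctbp1 siRNA cells and 361, 433 and 364 TPM in control siRNA cells. Its log2 change with LPS, on the log2(TPM + 1) scale used for every change below, was 2.14, 2.17 and 2.16 in these 3 siRNA groups, a fold of 4.41 to 4.51 (limma, adjusted p at most 1.12e-11), with no overlap between LPS and vehicle. Over all tested genes, 19.5%, 20.5% and 19.6% lay higher with LPS without overlap in the same order.

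Il15 had 184, 191 and 186 TPM with LPS in Ctbp2 siRNA cells, 156, 162 and 157 TPM in Ctbp1 siRNA cells and 190, 197 and 130 TPM in control siRNA cells. Its vehicle libraries lay between 29.2 and 39.0 TPM, all below every LPS library. The fold with LPS was 5.05 in Ctbp2 siRNA cells, 4.89 in Ctbp1 siRNA cells and 4.46 in control siRNA cells (limma, adjusted p at most 5.39e-11). Il10ra, the ligand-binding chain of the IL-10 receptor, had 122 to 135 TPM with LPS in Ctbp2 siRNA cells, 126 to 132 TPM in Ctbp1 siRNA cells and 124 to 127 TPM in control siRNA cells, against 55.3 to 71.9 TPM over all vehicle libraries. Its fold was 1.85 in Ctbp2 siRNA cells, 2.15 in Ctbp1 siRNA cells and 1.97 in control siRNA cells (limma, adjusted p at most 2.74e-10). LPS moved most of the transcriptome: 18.6% of tested genes were called higher and 55.3% lower in Ctbp2 siRNA cells, 19.4% and 51.1% in Ctbp1 siRNA cells, and 18.6% and 53.6% in control siRNA cells, at a Benjamini-Hochberg adjusted p under 0.05. In either direction these shares were 73.9%, 70.5% and 72.2%. The median log2 change of all tested genes with LPS was -0.32 in Ctbp2 siRNA cells, -0.26 in Ctbp1 siRNA cells and -0.29 in control siRNA cells. Scaling each library by median-of-ratios factors brought it to between -0.10 and -0.09 and raised the share of calls that were higher to 41.9%, 42.3% and 41.9%, against 25.2%, 27.5% and 25.7% as deposited. Under that scaling Ebi3, Il15, Il10ra and Il10, the members with a mean of at least 1 TPM in vehicle as well, kept their direction and call. Without control siRNA replicate 4, the log2 change in control siRNA cells was 2.20 for Ebi3, 2.35 for Il15 and 0.96 for Il10ra (limma, adjusted p at most 1.26e-09). In bulk RNA, fewer cells of a type and less RNA per cell cannot be told apart. The 4 stromal markers summed to 4.11 to 7.59 TPM with LPS and at most 0.152 TPM in vehicle, nearly all of it Pdgfrb, and their part in these results was not tested.

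Il10 was the member whose change with LPS took different signs. In Ctbp2 siRNA cells it had 5.39, 5.36 and 3.80 TPM with LPS and 3.08, 3.42 and 3.13 TPM with vehicle. In Ctbp1 siRNA cells it had 3.02, 3.21 and 2.90 TPM with LPS and 4.36, 3.08 and 4.40 TPM with vehicle. In control siRNA cells it had 3.30, 2.91 and 2.66 TPM with LPS and 4.00, 4.50 and 5.38 TPM with vehicle. LPS and vehicle libraries did not overlap in Ctbp2 siRNA cells, where LPS was higher, nor in control siRNA cells, where LPS was lower, and they overlapped in Ctbp1 siRNA cells. Over all tested genes, 19.5% lay higher with LPS without overlap in Ctbp2 siRNA cells, and 54.4% lower in control siRNA cells.

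In the fit, Il10 rose with LPS in Ctbp2 siRNA cells (log2 change 0.46, 95% interval 0.17 to 0.75, limma adjusted p = 0.00586) and fell with LPS in control siRNA cells (-0.50, -0.79 to -0.22, adjusted p = 0.00339). Both calls held under the alternatives run, with the rise between 0.39 and 0.66 under 12 of them and the fall between -0.63 and -0.34 under 11. Without control siRNA replicate 4 the fall was -0.45 (adjusted p = 0.0152). In Ctbp1 siRNA cells the change was -0.28 (-0.57 to 0.01) and was not called (adjusted p = 0.0772), except without vehicle replicate 3 (-0.41, adjusted p = 0.0154). The difference between the LPS responses of Ctbp2 siRNA and control siRNA cells was 0.97 (0.56 to 1.38), which did not pass the threshold over all genes (limma, adjusted p = 0.105, range 0.0610 to 0.281 over 17 alternatives), and was 0.91 without control siRNA replicate 4 (adjusted p = 0.107). Against Ctbp1 siRNA cells the difference was 0.74 (0.33 to 1.15, adjusted p = 0.413). For none of the 4 members present in vehicle was the LPS response called different between siRNA groups with all libraries. The share of tested genes called was 0.0329% for Ctbp2 siRNA against control siRNA (limma, 4 genes, with 1 of these members and 919 genes at an unadjusted p under 0.05). It was 0% for Ctbp2 siRNA against Ctbp1 siRNA (2 members and 1005 genes at an unadjusted p under 0.05) and 0% for Ctbp1 siRNA against control siRNA (0 members and 762 genes). In the authors' deposited table, the log2 fold change of Il10 with LPS is 0.97 in Ctbp2 siRNA cells (adjusted p = 6.93e-05), -0.055 in Ctbp1 siRNA cells (0.874) and -0.32 in control siRNA cells (0.267). The fall in control siRNA cells is thus called from TPM and not in the authors' deposited table, where Il10 is a low gene with a mean of 51.8 normalised counts.

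**Figure D2:**
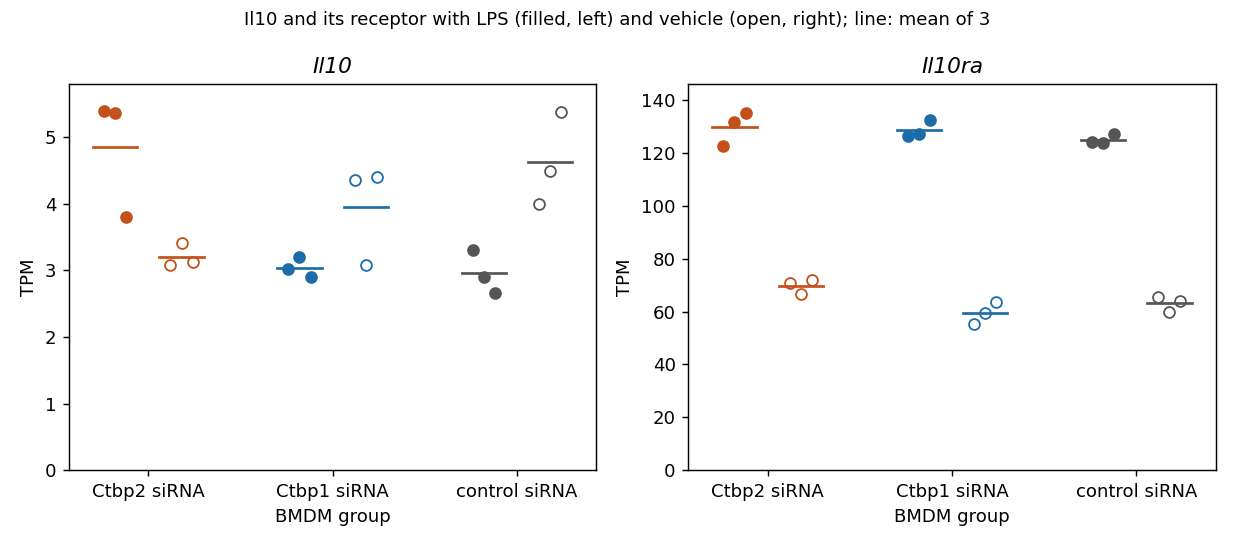
TPM of Il10 and Il10ra in the 3 siRNA groups of BMDMs, LPS filled and on the left of each pair, vehicle open and on the right, with a line at the mean of 3 libraries. Il10 with LPS lies above vehicle in Ctbp2 siRNA cells and below it in control siRNA cells, while Il10ra with LPS lies above vehicle in all 3 groups.

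The siRNA groups were compared with LPS first. Ctbp2 siRNA raised 1 of the 9 members over control siRNA, Il10 (log2 difference 0.56, 95% interval 0.27 to 0.85, limma adjusted p = 0.0466), where 0.519% of tested genes were called higher, 1.42% lower and 1.94% in either direction (26.7% of calls were higher, and 57.4% after median-of-ratios scaling). Its 3 Ctbp2 siRNA libraries, at 3.80 to 5.39 TPM, all lay above the 3 control siRNA libraries, at 2.66 to 3.30 TPM, as was so for 4.08% of tested genes. The authors' deposited table gives 0.79 (adjusted p = 0.0239). With the replicate numbers as a block, 414 genes were called in place of 236 and Il10 kept its call (limma, adjusted p = 0.0496). The call was narrow: it was lost under 7 of 11 alternatives, among them leaving out control siRNA replicate 1 (adjusted p = 0.0517), 3 (0.0783) or 4 (0.143) and Ctbp2 siRNA replicate 1 (0.176) or 3 (0.145), while the estimate stayed between 0.49 and 0.69. Il12b averaged 138 TPM in Ctbp2 siRNA cells and 86.0 TPM in control siRNA cells, a log2 difference of 0.81 (0.23 to 1.40) that was not called (limma, adjusted p = 0.144), and the groups overlapped. It was called without control siRNA replicate 3 (1.15, adjusted p = 0.0269), and it was 0.32 without replicate 4 (adjusted p = 0.275).

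For 6 other members, the sign of the difference of Ctbp2 siRNA from control siRNA depended on control siRNA replicate 4. For Il6, Ctbp2 siRNA differed from control siRNA by 0.29 (-0.31 to 0.90) with all libraries and by -0.24 (-0.42 to -0.06) without that library, neither called (limma, adjusted p = 0.636 and 0.206). Estimates of Il12a, Il23a, Il27, Ebi3 and Il15 also lay above 0 with it and below 0 without it, with no call in either. Il10ra barely moved, at 0.05 (-0.06 to 0.17) with it and 0.06 without it, and was called in neither fit (adjusted p = 0.659 and 0.725). Il10 itself was 0.50 without it (adjusted p = 0.143).

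Ctbp1 siRNA changed none of the 9 members against control siRNA with LPS when all libraries were used, where 0.0576% of tested genes were called in either direction (limma, 7 genes, with 0 members and 891 genes at an unadjusted p under 0.05). Without control siRNA replicate 4, 2 members were lower in Ctbp1 siRNA cells, where 0.682% of tested genes were called and 0.197% were called lower. Il6, at 105 to 120 TPM in Ctbp1 siRNA cells against 191 and 209 TPM in the remaining control siRNA libraries, fell by 0.83 on the log2 scale (95% interval -1.01 to -0.66, limma adjusted p = 0.000227). Il12b, at 62.7 to 71.8 TPM against 95.6 and 124 TPM, fell by 0.69 on the log2 scale (-0.96 to -0.42, adjusted p = 0.0223). Il23a (-1.10, adjusted p = 0.0562), Il27 (-0.51, adjusted p = 0.0562) and Il15 (-0.29, adjusted p = 0.0844) missed the threshold. With all libraries, Il6 differed by -0.30 (-0.91 to 0.31, adjusted p = 0.868) and Il12b by -0.20 (-0.78 to 0.39, adjusted p = 0.929), so the groups overlapped and changes of either sign were within the intervals.

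The direct comparison of Ctbp2 siRNA with Ctbp1 siRNA contains no control library. With LPS, 6 members lay higher in Ctbp2 siRNA cells with no overlap: Il6, Il12b, Il23a, Il27, Il10 and Il15. Over all tested genes, 5.15% lay higher with no overlap and 20.5% lower. Il12b had 122 to 166 TPM in Ctbp2 siRNA cells and 62.7 to 71.8 TPM in Ctbp1 siRNA cells, a log2 difference of 1.01 (95% interval 0.43 to 1.59) and the lowest adjusted p after Il10 (limma, adjusted p = 0.0529). Il23a differed by 1.04 (0.22 to 1.86, adjusted p = 0.131), Il6 by 0.59 (-0.01 to 1.20, 0.232), Il27 by 0.36 (-0.03 to 0.76, 0.259) and Il15 by 0.24 (-0.0035 to 0.48, 0.230).

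In the fit of all 18 libraries without a replicate block, Il10 was the one member past the threshold, at 0.52 (0.23 to 0.81, limma adjusted p = 0.0457), where 0.757% of tested genes were called higher, 2.83% lower and 3.59% in either direction (21.1% of calls were higher, and 61.7% after median-of-ratios scaling). Il12b also passed with the replicate numbers as a block (limma, adjusted p = 0.0335) and when genes needed a mean of at least 10 TPM (adjusted p = 0.0359). The call of Il10 was lost under 7 of 12 alternatives, among them leaving out replicate 1, 3 or 4 of Ctbp1 siRNA (adjusted p = 0.0869, 0.0887 and 0.126) or replicate 1 or 3 of Ctbp2 siRNA (0.163 and 0.125). The 18 libraries share 1 estimate of the spread, to which control siRNA replicate 4 with LPS contributes although it is in neither group. With that library out of the fit, the differences were the same and 6 members were called higher, where 1.69% of tested genes were called higher and 8.63% in either direction. Their adjusted p-values were 0.000173 for Il12b, 0.000443 for Il6, 0.0124 for Il23a, 0.0305 for Il10, 0.0353 for Il15 and 0.0424 for Il27 (limma). The library left out was set apart by low values of most of these same genes. Its removal narrows their intervals, so these calls are no independent evidence. Fitted on the 6 libraries of these groups alone, Il6 (adjusted p = 0.0328) and Il12b (0.0252) were called and Il10 was not (0.128).

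**Figure D3:**
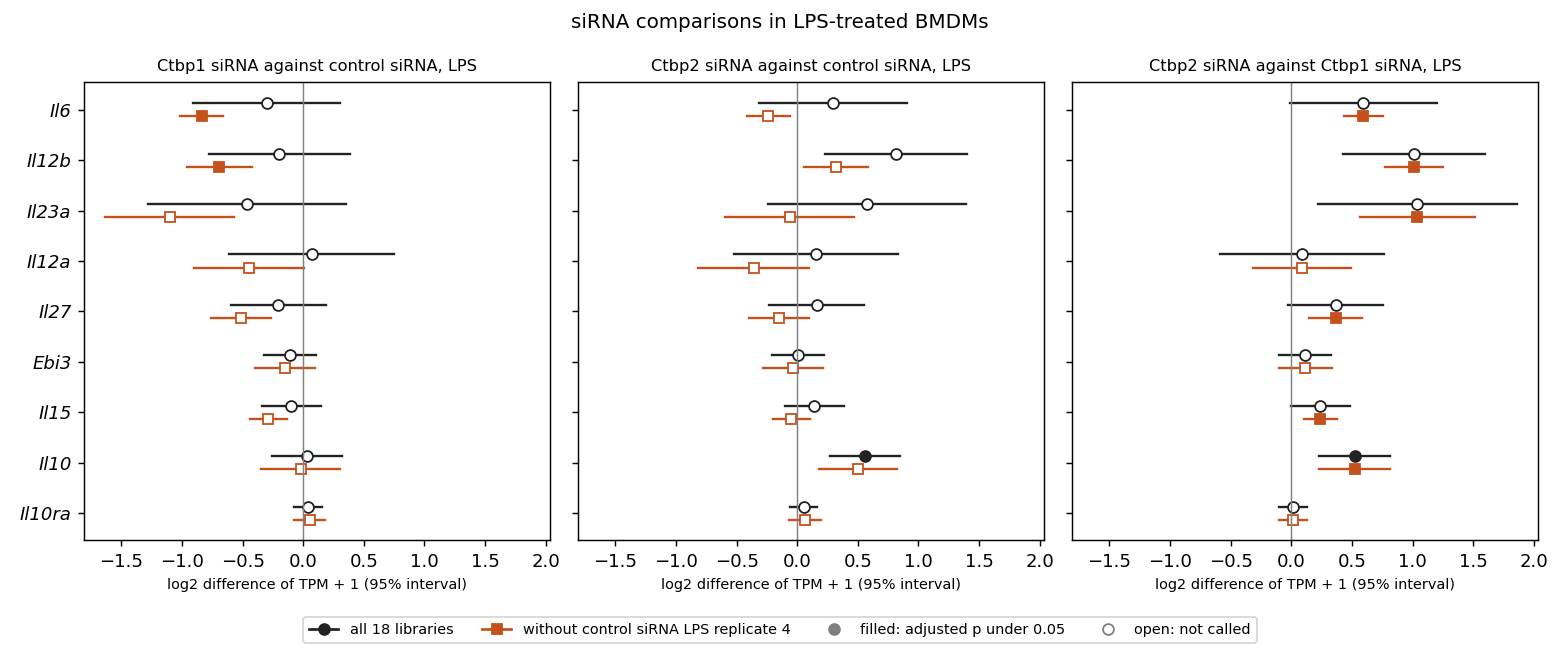
Log2 difference of each gene between siRNA groups of LPS-treated BMDMs with its 95% interval, from all 18 libraries (circles) and without control siRNA LPS replicate 4 (squares), filled where the adjusted p is under 0.05. Leaving out that library moves the estimates against control siRNA of Il6, Il12b, Il23a, Il12a and Il27 downward, for Il6 to -0.83 in Ctbp1 siRNA cells against -0.30 with it, and in the comparison of Ctbp2 siRNA with Ctbp1 siRNA it narrows the intervals of Il6, Il12b, Il23a, Il27 and Il15 without moving the estimates.

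Ebi3, Il10ra and Il12a overlapped between the siRNA groups with LPS. Ebi3 differed by 0.12 (-0.10 to 0.33) between Ctbp2 siRNA and Ctbp1 siRNA cells, Il10ra by 0.01 (-0.10 to 0.13) and Il12a by 0.09 (-0.59 to 0.77). These intervals leave room for a change of up to 1.26-fold for Ebi3, 1.09-fold for Il10ra and 1.70-fold for Il12a in the upward direction.

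In vehicle, no member was called between siRNA groups. This bears on Ebi3, Il10, Il10ra and Il15 only. Il6, Il12a, Il12b and Il23a stood at or near 0 in vehicle and so could not be called, and Il27 averaged 0.927 TPM, below the filter level. The share of tested genes called was 0.568% for Ctbp2 siRNA against control siRNA, 0.272% higher and 0.296% lower (limma, 69 genes, with 2 members and 1394 genes at an unadjusted p under 0.05), 0.107% for Ctbp1 siRNA against control siRNA, 0.00823% higher and 0.0988% lower (13 genes, with 1 member and 1084 genes) and 0.617% for Ctbp2 siRNA against Ctbp1 siRNA, 0.338% higher and 0.28% lower (75 genes, with 1 member and 1201 genes). Il10ra had 70.8, 66.4 and 71.9 TPM in Ctbp2 siRNA cells, against 55.3, 59.3 and 63.7 TPM in Ctbp1 siRNA cells and 65.5, 59.8 and 64.2 TPM in control siRNA cells. Every Ctbp2 siRNA library was higher than every library of both other groups. The log2 difference was 0.23 (0.11 to 0.34, limma adjusted p = 0.0787) against Ctbp1 siRNA and 0.14 (0.03 to 0.25, adjusted p = 0.298) against control siRNA. The first was called after median-of-ratios scaling (adjusted p = 0.0426), and the authors' deposited table calls the second (log2 fold change 0.19, adjusted p = 0.0460). Il10, at 3.08 to 3.42 TPM in Ctbp2 siRNA cells and 4.00 to 5.38 TPM in control siRNA cells, did not overlap in vehicle either, with a log2 difference of -0.41 (-0.70 to -0.12, adjusted p = 0.217). Il27 averaged 0.763 TPM in Ctbp2 siRNA cells and 0.718 TPM in Ctbp1 siRNA cells. Both groups lay below control siRNA cells, at 1.04 to 1.62 TPM, without overlap. Il27 passed the filter through LPS alone, so no test in vehicle is given for it. Among all tested genes, 6.01% lay above and 15% below control siRNA without overlap in Ctbp2 siRNA cells. In Ctbp1 siRNA cells 9.75% lay below control siRNA, and 6.52% lay higher in Ctbp2 siRNA than in Ctbp1 siRNA cells.

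Since chains are used in pairs, ratios within a library were compared on the TPM scale, which is per transcript length. Over the 9 LPS libraries of BMDMs, the level of Il12b was 10.1 to 40.1 times that of Il12a and 22.1 to 78.3 times that of Il23a, so transcript of the shared p40 chain exceeded that of both partners in every library. Ebi3 exceeded Il27 in all 9, with Il27 to Ebi3 ratios of 0.478 to 0.619 in Ctbp2 siRNA cells, 0.400 to 0.515 in Ctbp1 siRNA cells and 0.325 to 0.616 in control siRNA cells. In J774.1 cells the order was turned, with ratios of 1.78 to 2.03 in the double knockout and 1.53 to 1.68 in wildtype. The double knockout ratios all lay above wildtype (log2 difference 0.22 with 1 TPM added to both levels, two-sided exact permutation test, p = 0.1, the smallest p that 3 against 3 allows). Of 13 ratio comparisons made, 3 reached that p, none under 0.05 (Benjamini-Hochberg adjusted p = 0.433 for each). The others were Il12b to Il12a in Ctbp2 siRNA against control siRNA cells (log2 difference 0.66) and Il12b to Il10 in Ctbp2 siRNA against Ctbp1 siRNA cells (0.49). The 2 cell types come from separate tables and differ in strain and sex, and no test was made between them.

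In J774.1 cells with LPS, the double knockout had less Il6 and more Il15, Il10ra and Il27 than wildtype. Il15 had 23.4, 26.6 and 27.6 TPM in the double knockout, against 6.77, 4.34 and 3.70 TPM in wildtype. The groups were far apart, with a log2 difference of 2.21 (95% interval 1.78 to 2.63), a fold of 4.62 (limma, adjusted p = 8.51e-05). Il6 had 7.90, 7.13 and 5.94 TPM in the double knockout, against 20.0, 19.3 and 18.9 TPM in wildtype. It fell by 1.36 on the log2 scale (-1.58 to -1.14, a fold of 0.390, adjusted p = 2.80e-05), and every double knockout library was below every wildtype library. Of the 6 members tested, 4 were called higher, where 23% of tested genes were, and 1 lower, where 13.2% were (36.1% called in either direction). Lack of overlap was common here: 31.4% of tested genes lay above wildtype without overlap and 18.6% below.

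Il10ra had 59.4, 62.6 and 60.8 TPM in the double knockout, against 40.8, 39.9 and 43.0 TPM in wildtype, with no overlap and a log2 difference of 0.55 (0.45 to 0.66, limma adjusted p = 5.52e-05). Il27 had 123, 125 and 122 TPM in the double knockout, against 86.5, 92.0 and 97.3 TPM in wildtype, again with no overlap (0.42, 0.31 to 0.53, adjusted p = 0.000302). Ebi3 had 60.6, 69.0 and 68.5 TPM in the double knockout, against 56.7, 56.9 and 57.9 TPM in wildtype. The Ebi3 difference of 0.20 (0.07 to 0.33, adjusted p = 0.0231) is weak: it was lost under 6 of 11 alternatives, among them the fits without double knockout replicate 2 (0.0693) or 3 (0.0778) and without wildtype replicate 1 (0.0665), 2 (0.0660) or 3 (0.0531), and the authors' deposited table does not call it (0.13, adjusted p = 0.168). Il23a had 1.74, 2.05 and 1.80 TPM in the double knockout and 2.41, 1.67 and 2.16 TPM in wildtype, which overlapped (-0.10, -0.42 to 0.22, adjusted p = 0.604).

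**Figure D4:**
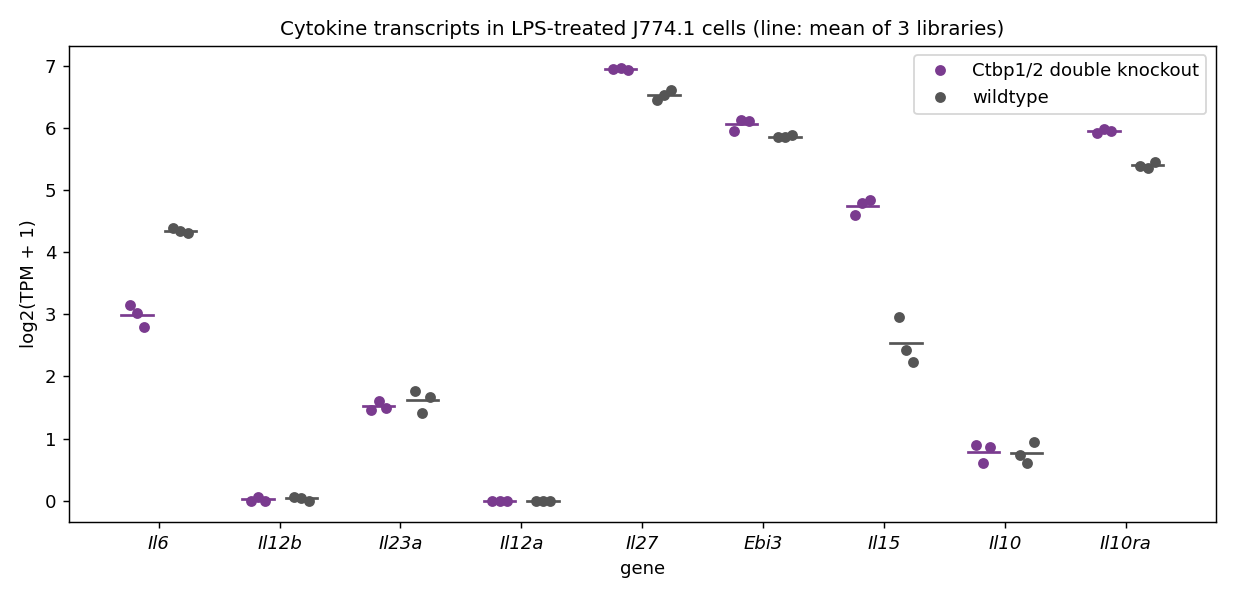
Log2(TPM + 1) of each gene in the 3 double knockout and 3 wildtype libraries of LPS-treated J774.1 cells, with a line at the mean. Il15 and Il6 are farthest apart, in opposite directions, and Il12a and Il12b sit at or near 0 in all 6 libraries.

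The p40 cytokines were close to silent in this line. Il12a was listed at 0 in all 6 libraries, and Il12b reached at most 0.0437 TPM in the double knockout and 0.0408 TPM in wildtype, while BMDM libraries with LPS had 38.4 to 166 TPM of Il12b in their own table. Il10 had 0.864, 0.521 and 0.820 TPM in the double knockout and 0.667, 0.515 and 0.919 TPM in wildtype, and the groups overlapped. With no vehicle libraries of J774.1 cells among the samples, these are levels after LPS, not responses to it.

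Reading the cytokines out needs receptors and JAK-STAT kinases, of which 13 of 16 listed genes were tested in BMDMs. LPS raised 5 in each siRNA group, Il15ra, Il2rg, Jak1, Jak2 and Tyk2, and lowered 5 in Ctbp2 siRNA cells, 4 in Ctbp1 siRNA cells and 4 in control siRNA cells (5 without replicate 4). Over all tested genes, 18.6%, 19.4% and 18.6% were called higher and 55.3%, 51.1% and 53.6% lower in these groups. The list's median log2 change was 0.13, 0.06 and 0.14 in the same order, against -0.32, -0.26 and -0.29 over all tested genes. The receptor for IL-6 moved opposite to its ligand: Il6ra, its specific chain, averaged 2.39 TPM with LPS and 26.2 TPM with vehicle in control siRNA cells (log2 change -3.04, limma adjusted p = 2.50e-11), and Il6st, which encodes gp130, averaged 19.3 TPM and 73.2 TPM (-1.88, adjusted p = 2.17e-10). Jak2, a kinase of the IL-12 and IL-23 receptors, averaged 158 TPM with LPS and 19.6 TPM with vehicle (2.94, adjusted p = 1.07e-14). Il15ra, which presents IL-15 to other cells, averaged 21.7 TPM with LPS and 6.10 TPM with vehicle (1.67, adjusted p = 1.56e-08), the same direction as Il15. Of the chains that receive IL-12 and IL-23, Il12rb1 and Il23r averaged under 1 TPM in every BMDM group. Il12rb2 passed the filter and was called lower with LPS in Ctbp2 siRNA cells. In control siRNA cells it was called lower only without replicate 4, and in Ctbp1 siRNA cells it was not called. Of 11 other ligands of these families 2 were tested in BMDMs, Osm and Clcf1, and Clcf1 passed the filter through LPS alone. Osm, a gp130 cytokine, was higher with LPS in Ctbp2 siRNA cells (log2 change 0.94, adjusted p = 0.000196) and Ctbp1 siRNA cells (0.60, adjusted p = 0.00738). In control siRNA cells its change was 0.31 (adjusted p = 0.141), and 0.48 without replicate 4, which was called (adjusted p = 0.0259).

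STAT3 response genes, which IL-6 and IL-10 are known to induce, were mostly higher with LPS. Of the 5 present in vehicle too, 5 were called higher in Ctbp2 siRNA cells, 5 in Ctbp1 siRNA cells and 4 in control siRNA cells, or 5 without replicate 4, where 18.6%, 19.4% and 18.6% of all tested genes were. Socs3, the feedback inhibitor of gp130 signalling, averaged 490 TPM with LPS and 0.407 TPM with vehicle in Ctbp2 siRNA cells, so it passed the filter through LPS alone and is not counted. Bcl3, a nuclear inhibitor of NF-kappa-B known to restrain inflammatory genes, averaged 107 TPM with LPS in Ctbp2 siRNA cells and 81.5 TPM in control siRNA cells, a log2 difference of 0.39 (limma, adjusted p = 0.0128). Il4ra, another gene of this list, differed by 0.35 (adjusted p = 0.0459). These 2 of 6 were called higher in Ctbp2 siRNA cells and none lower, where 0.519% of tested genes were called higher and 1.42% lower. The list's median difference was 0.27 against -0.06 over all tested genes. Without control siRNA replicate 4, Bcl3 was the one called of this list (0.39, adjusted p = 0.0344), where 0.428% of tested genes were called higher. Ctbp1 siRNA against control siRNA gave no call in any of the 5 lists, in vehicle or with LPS, by limma with all libraries. With control siRNA LPS replicate 4 out of the fit, Nfkbiz was called lower in that comparison in vehicle, where 0.197% of tested genes were. Between Ctbp2 siRNA and Ctbp1 siRNA with LPS, Clcf1, Il4ra and Socs3 were then called higher and Il6st and Irf1 lower. There 1.69% of tested genes were called higher and 6.95% lower. The library left out is in neither group, and with it in the fit none of Clcf1, Il4ra, Socs3, Il6st and Irf1 was called.

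Transcription factors of the cytokine genes were called with LPS in 13 of 14 cases in each siRNA group, 10 higher and 3 lower. Over all tested genes, 73.9% were called in Ctbp2 siRNA cells, 70.5% in Ctbp1 siRNA cells and 72.2% in control siRNA cells. In the same order, 18.6%, 19.4% and 18.6% were called higher and 55.3%, 51.1% and 53.6% lower. Nfkbiz, a cofactor known to be needed for Il6 and Il12b transcription, averaged 320 TPM with LPS and 9.83 TPM with vehicle in control siRNA cells (log2 change 4.88, limma adjusted p = 1.77e-17). Between siRNA groups with LPS, 1 of 14 was called with all libraries: Cebpb, at 332 TPM in Ctbp2 siRNA cells and 280 TPM in control siRNA cells (0.25, adjusted p = 0.0145). In that comparison 0.519% of tested genes were called higher and 1.42% lower. With the replicate numbers as a block, Maf was called lower in Ctbp2 siRNA than in control siRNA cells as well (-0.21, adjusted p = 0.0413). Without control siRNA replicate 4, Cebpb missed the threshold (0.20, adjusted p = 0.0508) and Irf1 was called lower in Ctbp2 siRNA cells (-0.24, adjusted p = 0.0495). In that fit 0.765% of tested genes were called lower in the same comparison. The 4 mRNA decay genes gave 4 higher calls with LPS in Ctbp2 siRNA cells, 3 in Ctbp1 siRNA cells and 4 in control siRNA cells. Among them Zfp36, which encodes the AU-rich element binding protein tristetraprolin, averaged 366 TPM in Ctbp2 siRNA cells, against 306 TPM in Ctbp1 siRNA cells (0.26, adjusted p = 0.0235) and 298 TPM in control siRNA cells (0.29, adjusted p = 0.0145). Zc3h12a, which encodes the Il6 mRNA nuclease Regnase-1, was higher than in Ctbp1 siRNA cells as well (0.28, adjusted p = 0.0297). Of all tested genes, 0.757% were called higher and 2.83% lower in Ctbp2 siRNA than in Ctbp1 siRNA cells. The calls of Zfp36 and Zc3h12a against Ctbp1 siRNA stayed without control siRNA replicate 4. The call of Zfp36 against control siRNA did not (0.25, adjusted p = 0.0569).

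In J774.1 cells, 6 of 10 tested receptors and kinases were called higher in the double knockout and none lower, with a median log2 difference of 0.41 against 0.05 over all tested genes. Of all tested genes, 23% were called higher and 13.2% lower. Jak2 averaged 90.1 TPM in the double knockout and 19.7 TPM in wildtype (2.14, limma adjusted p = 7.62e-08). Tyk2, a kinase shared by the IL-12, IL-6 and IL-10 receptors, differed by 1.19 (adjusted p = 2.08e-06) and Il6ra by 1.01 (adjusted p = 6.68e-06). Il15ra averaged 20.1 TPM in the double knockout and 9.74 TPM in wildtype (0.98, adjusted p = 0.000140), so it and Il15 were higher together.

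Among the other ligands of these families, 2 of 4 tested were lower in the double knockout and none higher. For this list and those below, the shares over all tested genes were 23% higher and 13.2% lower. Lif, a gp130 cytokine like IL-6, averaged 18.2 TPM in the double knockout and 94.7 TPM in wildtype (log2 difference -2.32, limma adjusted p = 7.08e-07), and Osm, also of that family, averaged 11.2 TPM and 16.7 TPM (-0.54, adjusted p = 0.00364). Of 11 tested transcription factors, 5 were higher and 4 lower. Nfkbiz averaged 52.9 TPM in the double knockout and 189 TPM in wildtype (-1.82, adjusted p = 3.21e-07), Irf8 86.0 TPM and 250 TPM (-1.53, adjusted p = 5.08e-07), and Irf1, an interferon-inducible factor, 57.8 TPM and 18.1 TPM (1.62, adjusted p = 3.15e-06). Of the 4 decay genes, 3 were lower and none higher. Zc3h12a averaged 62.1 TPM in the double knockout and 112 TPM in wildtype (-0.84, adjusted p = 1.44e-05), a direction shared with Il6. Of 6 STAT3 response genes 2 were higher and 1 lower. Socs3 averaged 219 TPM in the double knockout and 224 TPM in wildtype (-0.03, -0.15 to 0.08, adjusted p = 0.619).

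Across the 9 LPS libraries of BMDMs, Il6, Il15 and Il27 varied closely together and Ebi3 and Il12a less so, which describes libraries that share 3 siRNA groups and include control siRNA replicate 4. The genes closest to Il6 among those with a mean of at least 10 TPM were Il15 (Pearson r 0.990 over 9 libraries), the interferon-stimulated gene Isg15 (0.983) and Il27 (0.980). Without replicate 4 the same pairs had r of 0.978, 0.972 and 0.958 over 8 libraries. Il12b was closest to Serpinb2, Tnf and Trib1 (r 0.985, 0.982 and 0.979). Ebi3, though the partner chain of Il27, had r of 0.342 with it (Spearman rho 0.283) and was closest to the asparagine synthetase gene Asns (0.936). Il12a had r of 0.547 with Il12b (rho 0.317), and 0.019 without replicate 4, and was closest to Jak2 (0.981). Il23a was closest to Frmd6 (0.976) and had r of 0.918 with Il12b. Il10 was closest to Rwdd4a, Ier2 and Mt1 (0.945, 0.941 and 0.935), and Il10ra to Spred2 (0.965). The closest genes were picked as the highest r among 7912 or 7913 genes over 9 libraries. How high r would be from that choice alone was not tested.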

How the data were processed

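Polyadenylated RNA of 18 BMDM and 6 J774.1 libraries was sequenced unstranded, per the labels' protocols. Per the file headers, the authors deposited gene-level scaled TPM from Salmon on mm39 for BMDMs, and TPM for J774.1 cells. The submitters' processing notes name Salmon 1.9.0 and DESeq2 1.44.0. The authors' deposited table also holds DESeq2's log2 fold changes, their p-values and adjusted p-values, and a mean signal of normalised counts per gene. TPM sums to 999839 to 999944 per BMDM library and 999503 to 999526 per J774.1 library and keeps no depth, so no interval from read counts is given.

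Genes averaging 1 TPM or more over the libraries fitted were tested on log2(TPM + 1) with limma 3.58.1 in R 4.3.3 (trended, robust empirical Bayes). The BMDM libraries shared 1 fit and the J774.1 libraries had their own, because the tables were made separately. P-values were adjusted by Benjamini-Hochberg over all tested genes and called under 0.05, and every fold change is on the log2(TPM + 1) scale, which understates changes of low genes. Ratios within a library were compared by exact permutation tests with SciPy 1.17.1. In J774.1 cells, repeated gene IDs were dropped. Genes with a mean under 1 TPM in vehicle or in LPS libraries passed the filter through 1 treatment and are left out of counts of responses to LPS, a rule set after seeing the data. Deviations of same-numbered libraries from their group means correlated at -0.150 to 0.324 over 45 BMDM pairs, over 0.1 in 21 of these and in 4 of 90 pairs with different numbers, and at -0.026 to 0.163 over 3 J774.1 pairs. All 3 pairs passed 0.1 for Ctbp2 siRNA against control siRNA with LPS (0.103, 0.111 and 0.191), so the numbers are taken as pairs in that comparison and in no other. The fit was tested on simulated data. At an adjusted p under 0.05, 20 of 213 calls were false for Ctbp2 siRNA against control siRNA with LPS, and 5 of 193 for the double knockout. The first share is above the nominal 0.05, so calls near the threshold in that comparison, such as that of Il10, are less certain. The shares were not split by transcript level, so they do not show how the fit performs for low genes such as Il10. A test on counts had been planned in case the files held counts and was not used. The lists of receptors and kinases, other ligands, STAT3 response genes, transcription factors, mRNA decay genes and cell markers, and the members themselves, were chosen with earlier results of these data known; 1 gene of the first list is not reported here. Named from each list were up to 4 called genes per comparison by size of change. Alternatives were another pseudocount, other filters, median-of-ratios scaling, a replicate block, fits on only the libraries compared, and each library left out. The contrast of LPS responses between Ctbp2 and Ctbp1 siRNA, and the repeats of other comparisons, lists and correlations without control siRNA LPS replicate 4, were added after seeing the data. Promoter windows are RefSeq's on GRCm38.p6 and were found for 4 of 9 members.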

Additional observations from a re-analysis of the deposited data

How the results depend on the processing

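Of 8158 values of named genes under an alternative, 7997 kept their side of the threshold, 104 lost a call, 52 gained one and 5 called values reversed, and for the 9 cytokine genes and the 2 targets 1395 of 1444 kept their side. The reversals came with median-of-ratios scaling of LPS against vehicle: Ctbp1 to 0.036 in control siRNA and 0.010 in Ctbp1 siRNA cells, and Irf5 to 0.219 in Ctbp2 siRNA, 0.162 in Ctbp1 siRNA and 0.197 in control siRNA cells. The cause was not tested beyond the shift of the median gene that this scaling makes. With a pseudocount of 0.1, 2 genes differed in LPS response between Ctbp1 siRNA and control siRNA. With a mean of at least 10 TPM, 12 genes were called for Ctbp1 siRNA against control siRNA with LPS, 0 members for Ctbp2 siRNA against control siRNA with LPS because Il10 was not tested, and 8 and 1 genes for the LPS responses of Ctbp2 siRNA and Ctbp1 siRNA against control siRNA. With no filter, Ctbp2 siRNA against control siRNA gave 45 genes in vehicle and 132 with LPS (0 members), Ctbp2 siRNA against Ctbp1 siRNA with LPS 227 (0 members), and the LPS responses 0 for Ctbp2 siRNA against control, 2 for Ctbp1 siRNA against control and 4 for Ctbp2 siRNA against Ctbp1 siRNA. Scaling gave 23 genes for Ctbp1 siRNA against control siRNA in vehicle, 1 member, Il10ra, for Ctbp2 siRNA against Ctbp1 siRNA in vehicle, and 2 genes for the LPS response of Ctbp2 siRNA against control siRNA. It moved the share of vehicle calls that were higher to 65.4% for Ctbp2 siRNA against control (47.8% as deposited), 68.1% for Ctbp2 siRNA against Ctbp1 siRNA (54.7%) and 39.1% for Ctbp1 siRNA against control (7.69%).

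With a replicate block, Ctbp2 siRNA against control siRNA gave 155 genes in vehicle and, in the comparison whose numbers pair, 414 with LPS, where of the named genes Maf alone gained or lost a call, and Ctbp2 siRNA against Ctbp1 siRNA 143 in vehicle (1 member, Il10ra) and 821 with LPS (2 members, Il12b and Il10). Fitted on only the libraries compared, Ctbp2 siRNA against control siRNA gave 22 genes in vehicle and 4 with LPS (0 members), Ctbp1 siRNA against control siRNA 2 with LPS, the direct comparison of the Ctbp siRNAs 32 in vehicle and 52 with LPS (2 members), and the LPS responses 1, 3 and 1 genes for Ctbp2 siRNA against control, Ctbp1 siRNA against control and Ctbp2 siRNA against Ctbp1 siRNA.

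Leaving out 1 library at a time, Ctbp2 siRNA against control siRNA gave 4 to 105 genes in vehicle and 66 to 295 with LPS (0 to 1 members), and Ctbp1 siRNA against control siRNA 5 to 38 in vehicle and 6 to 83 with LPS (0 to 2 members). Ctbp2 siRNA against Ctbp1 siRNA gave 25 to 121 in vehicle and 117 to 1050 with LPS (0 to 6 members). The highest counts came without control siRNA LPS replicate 4, except 295, which came without replicate 3. The LPS responses gave 0 to 13 genes for Ctbp2 siRNA against control, 0 to 4 for Ctbp1 siRNA against control and 0 to 1 for Ctbp2 siRNA against Ctbp1 siRNA. The double knockout gave 3493 to 3856 genes (4 to 5 members), and LPS against vehicle 8572 to 9082 in Ctbp2 siRNA, 8075 to 8672 in Ctbp1 siRNA and 8290 to 8757 in control siRNA cells. A group left with 1 library fewer is assumed to vary like the others. Each group has 3 libraries, TPM keeps no read depth, and Il10, Il23a and Il12a stand at a few TPM, where small differences could not be detected.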
